A study of Mus musculus with 2 samples.

Results

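The 5 miRNA genes of the Mir200 family and Mir203 were examined in small RNA of mouse embryonic forebrain. They were taken by gene name, 6 of 1973 miRNA gene rows: Mir200b, Mir200a and Mir429 of a cluster on chromosome 4, Mir200c and Mir141 of a cluster on chromosome 6, and the lone Mir203 on chromosome 12. The samples formed 1 group of 2 libraries, from forebrains of healthy B6NCrl embryos of both sexes at day 15.5, with RNA shorter than 30 nt sequenced. Replicate 1 pooled 78 embryos and replicate 2 pooled 62. There was no treatment, mutant or second tissue, so each comparison is between genes or between these pools, and p-values compare 2 libraries, not conditions.

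MicroRNAs are processed from hairpin-shaped transcripts and repress messenger RNAs with which they pair, mostly through a seed near the 5′ end of the miRNA. The Mir200 family is known for keeping epithelial cells epithelial by repressing Zeb1 and Zeb2, transcription factors that shut off E-cadherin and in turn repress both Mir200 clusters. Mir203 is best known in stratified epithelium, where it restrains the progenitor factor p63. In the embryonic head, Mir200 family members are known from olfactory epithelium, and they have also been linked to the switch from neural progenitor to neuron.

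All 6 genes matched RefSeq entries of GRCm38.p6, the mm10 genome, and the mature 3p arms, the arms usually regarded as the main product of these hairpins, are shown because they define the targets. Each line runs 5′ to 3′, with the seed (bases 2 to 8) in capitals.
miR-200b-3p: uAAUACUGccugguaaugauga
miR-200c-3p: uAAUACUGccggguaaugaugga
miR-429-3p: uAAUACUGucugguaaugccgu
miR-200a-3p: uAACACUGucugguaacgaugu
miR-141-3p: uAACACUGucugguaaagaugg
miR-203-3p: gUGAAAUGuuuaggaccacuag

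The family splits into seed groups that cut across the clusters. Mir200b, Mir200c and Mir429 share the seed AAUACUG, which pairs with CAGTATT in a target, and Mir200a and Mir141 share AACACUG, which pairs with CAGTGTT. With positions counted from 1 at the 5′ end, the seeds differ by 1 base (C4U from miR-200a-3p to miR-200b-3p). For all members of the family but Mir429, the nearest mature 3p sequence lies on the other chromosome. From miR-200b-3p to miR-200c-3p the first 22 bases differ by U11G and A22G, and from miR-200a-3p to miR-141-3p by C17A and U22G. From miR-200b-3p to miR-429-3p, its neighbour in the cluster, 4 bases differ (C9U, A19C, U20C and A22U), as many as from miR-200a-3p to miR-429-3p, against 5 from miR-200c-3p. Mir203 has its own seed, UGAAAUG. No other mature mouse miRNA among the 1738 in the RefSeq table carries any of these 3 seeds.

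Reads placed at more than 1 locus were outside the gene rows, so the length at which a read becomes unique matters for this family. None of the 12 mature sequences of the 6 genes, 21 to 23 bases long, was held by another of the 1005 mouse hairpins. The first 16 bases of miR-200a-3p and miR-141-3p are the same, and 17 bases separate them. For miR-200b-3p and miR-200c-3p, 11 bases separate them. These lengths compare hairpins only, and whether reads this short map elsewhere in the genome was not tested. Read lengths were not part of the files, and counts are per gene, so the arms cannot be told apart.

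The chromosome 4 cluster lies on the minus strand of mm10 and runs, in the direction of transcription, from Mir200b (chr4:156055681-156055750) through Mir200a (chr4:156054896-156054985) to Mir429 (chr4:156053905-156053987). The hairpins are 695 and 908 bases apart. By GENCODE M21 all 3 lie in an intron of Ttll10, a tubulin ligase-like gene, and of the noncoding gene Gm13648, except that Mir429 overlaps an exon of Gm13648. Mir200c (chr6:124718322-124718390) and Mir141 (chr6:124717914-124717985) are 336 bases apart on the minus strand of chromosome 6, in an intron of the noncoding gene Gm15884. Mir141 also overlaps an exon of Gm29008 on the same strand, and Phb2 on the other strand lies 964 bases from Mir141. Mir203 (chr12:112130880-112130955, plus strand) overlaps no other gene of GENCODE M21, though RefSeq places mmu-miR-203b within it on the opposite strand. The nearest protein-coding gene, Aspg, is 3321 bases away on the same strand.

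Levels are normalised counts (CPM), a gene's count for each 1000000 counts over miRNA genes in that library. Replicate 1 held 4464927 such counts and replicate 2 held 4753555, and 44.6% and 42.4% of all reads were in the multi-mapping row. The level of 3 counts, the limit that no count allows, was 0.672 CPM in the former and 0.631 CPM in the latter. All 6 genes had at least 10 counts in both libraries and so were detected, against 18.8% of all gene rows. Their counts summed to 7601 in replicate 1 and 8988 in replicate 2, or 0.180% of all gene counts on average. Mir203 made up most of this sum, and the 5 Mir200 family genes together reached 616 ± 23.3 CPM (SD, n = 2). In whole tissue, fewer cells of a type and less RNA per cell cannot be told apart.

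Mir203 was the most abundant of the 6. It had 4924 counts in replicate 1 (1103 CPM, Clopper-Pearson 95% interval 1072 to 1134) and 5981 in replicate 2 (1258 CPM, 1227 to 1290). Its mean of 1181 ± 110 CPM (SD, n = 2) ranked 82nd of the gene rows, and it exceeded Mir429, the next member, 2.74-fold in replicate 1 and 3.32-fold in replicate 2.

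Mir429, the last gene of the chromosome 4 cluster, had 1800 counts (403 CPM, 385 to 422) in replicate 1 and 1799 (378 CPM, 361 to 396) in replicate 2. Mir200b, the first gene of that cluster, had 396 (88.7 CPM, 80.2 to 97.9) and 413 (86.9 CPM, 78.7 to 95.7). Mir200c, the first gene of the chromosome 6 cluster, had 281 (62.9 CPM, 55.8 to 70.7) and 345 (72.6 CPM, 65.1 to 80.7). For these 3 genes the intervals of the libraries overlapped.

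Mir200a, the middle gene of the chromosome 4 cluster, was the exception within the family. It had 129 counts (28.9 CPM, 24.1 to 34.3) in replicate 1 and 381 (80.2 CPM, 72.3 to 88.6) in replicate 2, and these intervals were far apart. Mir141 was the lowest, with 71 counts (15.9 CPM, 12.4 to 20.1) in replicate 1 and 69 (14.5 CPM, 11.3 to 18.4) in replicate 2.

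**Figure D1:**
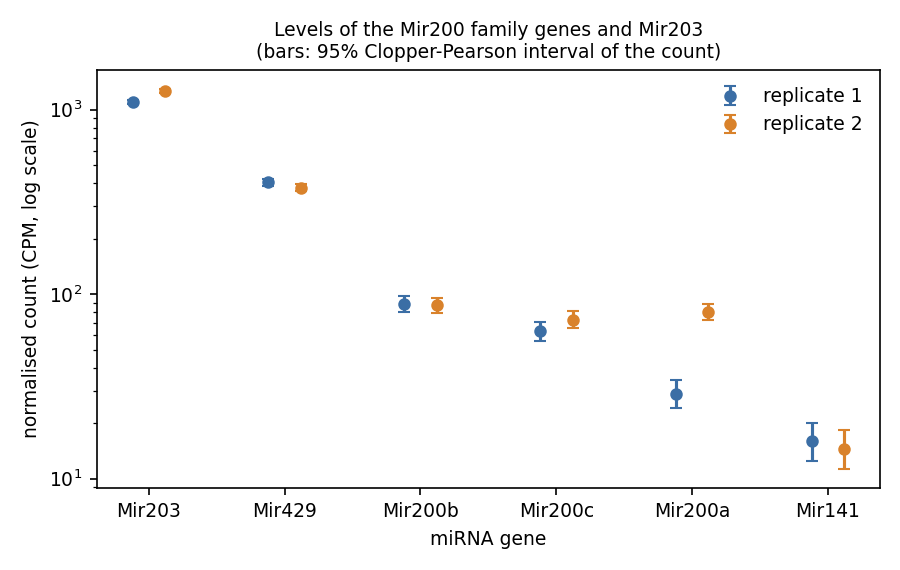
Normalised count (CPM, log scale) of each of the 6 genes in replicate 1 and replicate 2, with bars for the 95% Clopper-Pearson interval of the count. Mir203 lies highest, at 1103 and 1258 CPM, and Mir200a is the one gene whose libraries are far apart, at 28.9 and 80.2 CPM.

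By mean level the order was Mir203, Mir429, Mir200b, Mir200c, Mir200a and Mir141. Neighbours in this order had ranges over the libraries that did not overlap, except Mir200c and Mir200a: Mir200c was 2.18 times Mir200a in replicate 1 and 0.906 times in replicate 2. Mir200b and Mir200c stood close, at 87.8 ± 1.28 and 67.8 ± 6.82 CPM (SD, n = 2), and the counting interval of Mir200b overlapped that of Mir200c in replicate 2. The median of the 370 detected genes was 111 CPM, so Mir203 and Mir429 lay above it and the other 4 below. These are levels per gene, not per length, and differences between miRNAs in how well they are captured in a library were not measured.

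Genes of the same cluster differed in level. Across the chromosome 4 cluster Mir429 exceeded Mir200b 4.55-fold in replicate 1 and 4.36-fold in replicate 2, although Mir200b stands first in the transcript. On chromosome 6 Mir200c, the upstream gene, exceeded Mir141 3.96-fold and 5.00-fold. The chromosome 4 cluster as a whole reached 533 ± 17.5 CPM (SD, n = 2) and the chromosome 6 cluster 83.0 ± 5.84 CPM. Their ratio was 6.61 in replicate 1 and 6.26 in replicate 2.

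The make-up of the chromosome 4 cluster differed between the libraries. Mir200a held 5.55% of its counts in replicate 1 (Clopper-Pearson 95% interval 4.65 to 6.56) and 14.7% in replicate 2 (13.4 to 16.1). The share of Mir429 was 77.4% (75.7 to 79.1) in replicate 1 and 69.4% (67.6 to 71.1) in replicate 2. Mir200b held 17.0% (15.5 to 18.6) and 15.9% (14.5 to 17.4). The intervals of Mir200a and of Mir429 did not overlap between libraries, while those of Mir200b did. These shares cannot be independent, and the ratio of Mir429 to Mir200b, which leaves Mir200a out, was 4.55 against 4.36. In the chromosome 6 cluster Mir200c held 79.8% (75.3 to 83.9) and 83.3% (79.4 to 86.8), with overlapping intervals.

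**Figure D2:**
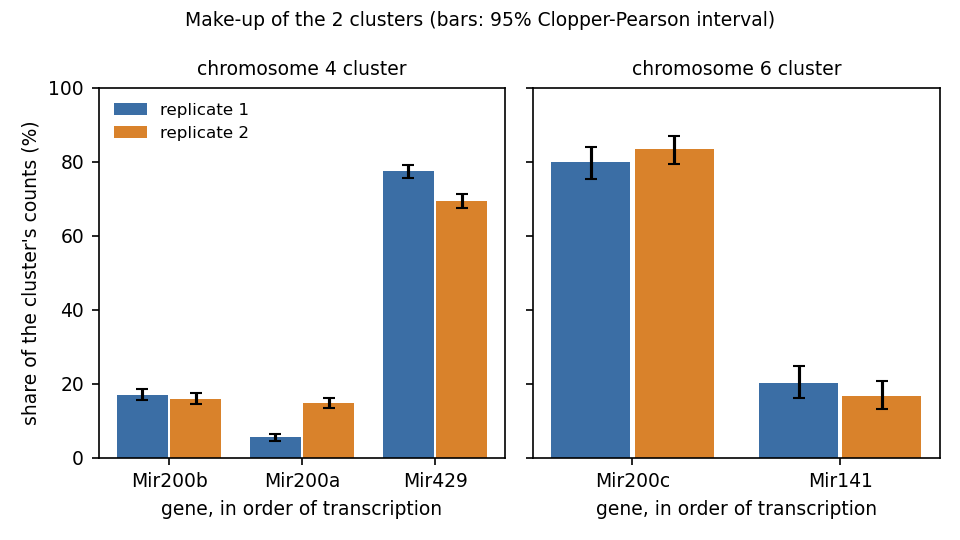
Share of a cluster's counts (%) held by each gene in replicate 1 and replicate 2, with bars for the 95% Clopper-Pearson interval. The share of Mir200a goes from 5.55% in replicate 1 to 14.7% in replicate 2, while both genes of the chromosome 6 cluster have overlapping intervals.

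Summed by seed, Mir200b, Mir200c and Mir429 gave 555 and 538 CPM in replicates 1 and 2. Mir200a and Mir141 gave 44.8 and 94.7 CPM. The first group was thus close between the pools and the second was not, through Mir200a alone, since Mir141 was at 15.9 and 14.5 CPM. These sums take each gene's counts as its 3p arm, which the files do not show.

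Of the 6 genes, 2 differed between the libraries beyond counting error and both were higher in replicate 2 (two-sided exact binomial test, Benjamini-Hochberg adjusted over 457 genes). Over all genes tested 36.3% were called, 19.3% higher and 17.1% lower in replicate 2, so 2 of 6 is near the background. The median log2 ratio of replicate 2 over replicate 1 was 0.080 for the 6 genes and 0.046 for the 370 detected genes. Of all calls 53.0% were higher in replicate 2, a split that became 69.1% with Mir99a, the most abundant gene, left out of the library total, 43.4% with TMM scaling, 41.7% with DESeq2 size factors and 38.4% with all reads in the file as the total.

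The level of Mir200a was 2.77-fold higher in replicate 2, a difference of 1.47 on the log2 scale (adjusted p = 1.09e-25, exact binomial test). Among the 370 detected genes none had a higher ratio, and 1, Mir206, had a larger one in absolute size. The minimum of 10 counts in each library removes genes that are near 0 in 1 of them, and among all 457 genes tested 16 had a larger absolute ratio, among them Mir124a-3, with 0 and 10 counts, which was called higher in replicate 2 (exact binomial test, adjusted p = 0.00706). Mir206 is a skeletal muscle miRNA and was lower in replicate 2, with 92 counts against 23. Mir203 was 1.14-fold higher in replicate 2, by 0.19 on the log2 scale (adjusted p = 4.37e-11, exact binomial test). The median absolute log2 ratio of the detected genes was also 0.19, so the difference in Mir203 was of the median size. edgeR put the spread between the replicates at a coefficient of variation of 16.1%.

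The other 4 genes were not called. Mir200c had a log2 ratio of 0.21 (adjusted p = 0.178), Mir429 of -0.091 (adjusted p = 0.143), Mir141 of -0.13 (adjusted p = 0.765) and Mir200b of -0.030 (adjusted p = 0.878), all by the exact binomial test. Mir429 passed the threshold as lower in replicate 2 with TMM scaling (log2 ratio -0.13, adjusted p = 0.0232, exact binomial test), with DESeq2 size factors and with all reads as the total. The ratio of Mir200b turned to 0.030 when the total excluded Mir99a, and the other 5 genes kept their sign in each scaling run.

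**Figure D3:**
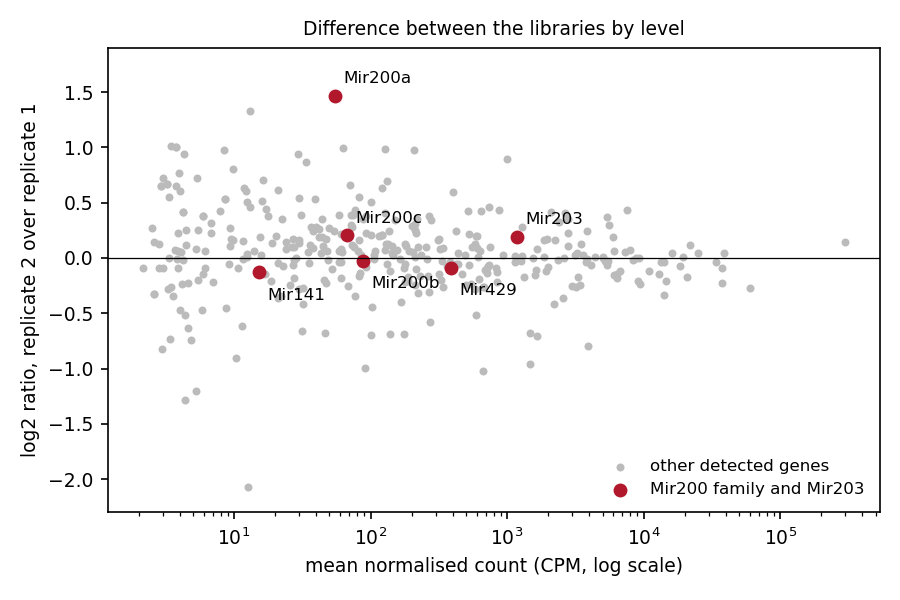
Log2 ratio of replicate 2 over replicate 1 against mean normalised count (CPM, log scale) for the 370 detected genes, with the Mir200 family and Mir203 in red. Mir200a, at 1.47, is the highest point of the plot, and the other 5 lie between -0.13 and 0.21.

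Mir200a was also set against its direct neighbours. Among 107 neighbouring pairs of detected miRNA genes, on the same strand and within 10000 bases, the median absolute difference of log2 ratios was 0.20 and 4 pairs differed by more than 1. The largest differences were those of Mir200a with Mir429 (1.56) and of Mir200a with Mir200b (1.50), followed by Mir449c with Mir449b (1.14), of which the rarer gene had 40 counts in total against 510 for Mir200a. These pairs were ranked after the values were seen, and no test of the ranking was made. Both pairs of Mir200a rest on its ratio between the libraries and are not results apart from it. Mir141, its closest relative by sequence, was not called, and Mir200a was 1.82 times Mir141 in replicate 1 and 5.52 times in replicate 2. Its hairpin is shown here, 5′ to 3′, with both mature arms in capitals.
Mir200a hairpin: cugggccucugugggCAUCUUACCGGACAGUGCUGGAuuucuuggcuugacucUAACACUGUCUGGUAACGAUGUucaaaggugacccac

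Other miRNAs were measured as lists, to show which tissues the pools could hold. Of 8 other epithelial miRNAs, 5 were detected, and the summed level of all 8 was 541 CPM in the first library and 428 CPM in the second. The most abundant were Mir375 (273 ± 76.8 CPM, SD, n = 2), known from endocrine cells, and Mir192 and Mir194-2 (84.9 ± 1.30 and 60.9 ± 2.52 CPM), both known from gut and liver. Mir205, the partner of the Mir200 family in repressing Zeb factors in epithelium, had 131 and 123 counts (27.6 ± 2.45 CPM). Of the list, 7 were not called and Mir375 fell by 0.58 on the log2 scale from replicate 1 to replicate 2 (adjusted p = 1.32e-22, exact binomial test). Its level was 328 CPM in replicate 1 and 219 CPM in replicate 2, so the fall in the sum lay mostly in this gene. Over all genes tested 36.3% were called.

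The sensory organ cluster of Mir182, Mir183 and Mir96, genes of hair cells, photoreceptors and olfactory neurons, stood at 138 ± 45.5, 102 ± 22.2 and 31.2 ± 9.97 CPM (SD, n = 2). All 3 were called lower in replicate 2 (log2 ratios -0.68, -0.45 and -0.66), against 17.1% of all genes tested. As neighbours on the same strand, 116 and 3453 bases apart, they are not independent of each other. They remained called as lower under each scaling run. In sign they were opposite to Mir200a, Mir200c and Mir203, and the same as Mir200b, Mir429 and Mir141. Of 11 choroid plexus and ciliated cell miRNAs 8 were called lower in replicate 2, against 17.1% of all genes tested. Several of the 11 are also neighbours on the same strand, such as Mir449a, Mir449b and Mir449c, so they are not independent either. None of the 11 was higher under any scaling run. Their summed level was 9968 CPM in the first library and 5650 CPM in the second, led by Mir449a, Mir204 and Mir1298 (3882 ± 1475, 1480 ± 483 and 1475 ± 666 CPM). Choroid plexus is itself an epithelium. Beside these values, the chromosome 4 cluster stood at 521 CPM in replicate 1 and 545 CPM in replicate 2. Without Mir200a it stood at 492 and 465 CPM. The chromosome 6 cluster stood at 78.8 and 87.1 CPM, and Mir203 at 1103 and 1258 CPM. Whether choroid plexus gave any of these counts was not tested.

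Mesenchyme and mural cell miRNAs, of cell types in which the Mir200 family is typically low, summed to 6041 and 6814 CPM. Their leading genes Mir143, Mir140 and Mir214 were each called higher in replicate 2, with log2 ratios of 0.13, 0.22 and 0.38. The 3 others tested were not called, and these counts were the same under each scaling run. Over all genes tested 19.3% were called higher. Neural miRNAs summed to 18693 CPM in replicate 1 and 18376 CPM in replicate 2, led by Mir137, Mir92b and Mir128-1 (9092 ± 926, 5547 ± 814 and 2002 ± 75.9 CPM). Of 10 listed, 9 had a row and 6 were detected. The neuronal Mir124a-1, Mir124a-2 and Mir124a-3 were under the detection minimum, at 2.80, 2.25 and 1.05 CPM, and the progenitor gene Mir9-2 stood at 3.26 CPM against 733 CPM for Mir9-3. These genes have near-identical copies, so their levels are uncertain, and the part of multi-mapping reads in them was not tested. Nor was it tested for Mir128-1 and Mir194-2, which each have another numbered copy in the lists. Of the 9, 2 were called higher and 2 lower, against 19.3% and 17.1% of all genes tested. Those called higher were Mir92b and Mir124a-3, the latter with 0 and 10 counts and so not detected. The number called lower was 4 under TMM factors and 1 when the total excluded Mir99a. The part of any of these cell types in the levels of the 6 genes was not tested.

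**Figure D4:**
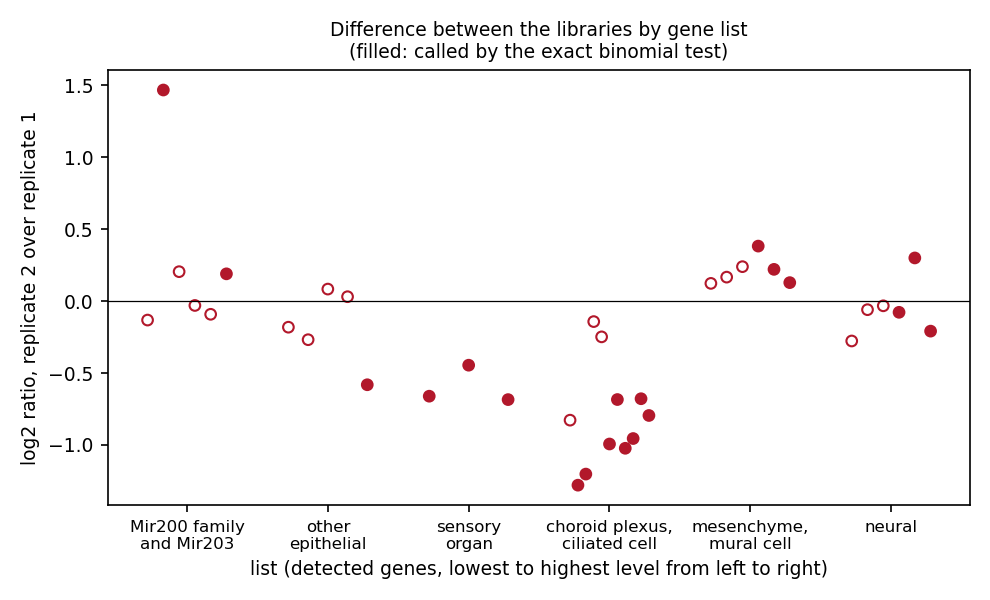
Log2 ratio of replicate 2 over replicate 1 for the detected genes of each list, filled where called by the exact binomial test and ordered within a list by level. Choroid plexus and sensory organ miRNAs all lie below 0, whereas Mir200a lies at 1.47 and the other 5 genes of its list lie near 0.

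The detected gene most like each member was found as the smallest distance in log2(CPM + 1) over the 2 libraries, which with so few libraries reflects mainly the level. Mir203 was nearest to Mir425 (distance 0.030), Mir429 to Mir770 (0.061), Mir200b to Mir302d (0.071), Mir200c to Mir362 (0.12) and Mir141 to Mir486 (0.13). Mir200a had no close counterpart: the nearest was Mir129-1 at 0.53, with 42.1 and 83.9 CPM in replicates 1 and 2. This distance uses the same levels of Mir200a as its ratio between the libraries and is not a result apart from it.

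The opposite strand of the 5 Mir200 family genes had no counts in either library. With 3 counts as the limit, this allows an opposite-strand share of up to 0.167% for Mir429 and 4.35% for Mir141, the most and the least deeply counted of the 5. Intervals and limits cover counting error only, since the libraries carried no stated molecular identifiers and reads may be copies of 1 molecule.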

How the data were processed

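Small RNA of 2 forebrain libraries was analysed. The authors deposited raw read counts for each miRNA gene, from mm10 alignments with GENCODE M4 annotation, per the deposited README text. Sources used here give no aligner or counter. The column of one strand, which held nearly all gene counts, was used, and the 4 rows that name no gene were left out of totals. Symbols and positions came from GENCODE M21 (1894 of 1973 identifiers matched) and sequences from RefSeq.

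CPM was the count over the sum of gene counts. Genes whose counts summed to 10 or more were compared between the libraries by an exact binomial test (two-sided), expecting the ratio of the library totals, and p-values were adjusted by Benjamini-Hochberg with a threshold of 0.05 (scipy 1.17.1). Ratios had 0.5 counts added. edgeR 4.0.16 and DESeq2 1.42.0 gave scaling alternatives, and edgeR the spread between replicates; no quasi-likelihood test was possible with 1 group.

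The 6 genes, the lists and the tests were chosen with earlier results of these data known. Named genes were the 6 genes, the 3 most abundant of each list, each member's nearest gene and any gene sharing a seed. Mir205, Mir206, Mir9-2, Mir9-3, Mir124a-1, Mir124a-2, Mir124a-3, Mir449b, Mir449c and Mir99a were added after values were seen. No source used here says whether the pools shared litters or were prepared together, and the spread between them may be technical.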

Additional observations from a re-analysis of the deposited data

Results flagged for a closer look

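Mir203 had reads on the opposite strand, a column that the levels do not use: 90 of 5014 reads over both strands in replicate 1 (1.79%, Clopper-Pearson 95% interval 1.45 to 2.20) and 86 of 6067 in replicate 2 (1.42%, 1.14 to 1.75), a mean of 1.61%. This is above the limit that a count of 0 allows, and came to 19.1 ± 1.46 CPM (SD, n = 2), more than the level of Mir141. Of 280 genes whose counts on the strands summed to 100 or more in both libraries, 240 had no opposite-strand count and 12 had a higher share than Mir203. Over the summed counts of all genes, the opposite strand held 1.59% in replicate 1 and 1.49% in replicate 2. This pooled share is close to that of Mir203 but is not that of a typical gene, as only 14 of the 280 exceeded 1%. RefSeq places the mature miRNAs of mmu-miR-203b on that strand, at chr12:112130887-112130908 and chr12:112130927-112130946, and each is the reverse complement of part of the Mir203 hairpin. Both are shown 5′ to 3′ with the seed in capitals, because they give the RNA annotated at the position of these reads. Whether the reads match them was not tested.
miR-203b-3p: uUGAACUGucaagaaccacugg
miR-203b-5p: aGUGGUCCuaaacauuucac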

How the results depend on the processing

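With Mir99a left out of the library total, levels were higher by construction: Mir203 at 1682 CPM, Mir429 at 556, Mir200b at 124.9, Mir200c at 96.5, Mir200a at 78.3 and Mir141 at 21.6 CPM. With counts on either strand Mir200b stood at 86.4 CPM, and Mir429, Mir200c, Mir200a and Mir141 were also lower, as the library totals were larger. The log2 ratio of Mir200b changed sign to 0.030 (exact binomial adjusted p = 0.876) with Mir99a left out. The uncalled Mir429 was called as lower with TMM scaling (-0.13), DESeq2 size factors (-0.14, exact binomial adjusted p = 0.0132) and all reads as the total (-0.16, adjusted p = 0.00403). Mir200a stayed called at 1.40 to 1.53 and Mir203 at 0.13 to 0.25 over all 10 settings. With a minimum of 100 counts in each library 5 of the 6 genes were detected, without Mir141. With 1 replicate left out, all 6 were detected, and levels ran from 1103 to 1258 CPM for Mir203, 378 to 403 for Mir429, 86.9 to 88.7 for Mir200b, 62.9 to 72.6 for Mir200c, 28.9 (without replicate 2) to 80.2 (without replicate 1) for Mir200a and 14.5 to 15.9 for Mir141. Shares of the chromosome 4 cluster ran from 15.9% to 17.0% for Mir200b, 5.55% to 14.7% for Mir200a and 69.4% to 77.4% for Mir429. Sums by seed ran from 44.8 to 94.7 CPM (AACACUG), 538 to 555 CPM (AAUACUG) and 1103 to 1258 CPM (UGAAAUG). No paired analysis was possible because there was 1 group.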
